A study of Mus musculus with 2 samples.

Results

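Immune checkpoint ligands were followed through the cell classes of mouse pancreatic tumors: Cd274 (PD-L1), Pdcd1lg2 (PD-L2), Cd80, Cd86, Pvr, Nectin2, Lgals9 (galectin-9), Vsir (VISTA) and Cd276 (B7-H3). These 9 of the 32285 listed genes were taken by symbol for their known role, and all 9 had UMIs (unique molecules) in both libraries. The question was which tumor, myeloid, lymphoid and stromal cells carried each ligand, and whether the levels differed between the libraries.

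PD-L1 and PD-L2 bind PD-1 on activated T cells and dampen the T cell receptor signal, and interferon-γ is a strong inducer of PD-L1. CD80 and CD86 bind the costimulatory receptor CD28 and, more tightly, the inhibitory receptor CTLA-4. PVR and nectin-2 are shared by the inhibitory receptor TIGIT and the activating receptor CD226, galectin-9 binds TIM-3 (Havcr2), VISTA binds PSGL-1 (Selplg), and the receptor of B7-H3 is not settled.

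KPC cells, which are mouse pancreatic cancer cells, were injected into the pancreas of male mice, and the tumors were harvested about 2 to 3 weeks later. The library labelled FLOX came from MCT1 fl/fl hosts and the library labelled MCT1-KO from Col1a2-CreERT2 MCT1-/- hosts, in which tamoxifen given before implantation activates a Cre recombinase in Col1a2-expressing cells such as fibroblasts and pancreatic stellate cells. The targeted MCT1 allele was in the hosts and not in the KPC cells. The age of the hosts and the number of mice behind each library are not given in the sources used here. Live cells were not sorted, and each condition had 1 library, so no test between conditions was possible and every interval below is a 95% interval for counting error only. The FLOX label gives no treatment, and whether these hosts had tamoxifen or its vehicle, corn oil, is not given in the sources used here, so that genotype and treatment cannot be told apart.

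The kept barcodes, taken as cells, numbered 8739 in FLOX (median 4069 UMIs) and 11689 in MCT1-KO (median 3706 UMIs). Of these, 59 barcodes occurred in both libraries, 0.675% of the first and 0.505% of the second. Classes were built from clusters and fixed marker genes, without the 9 ligands. They held 6274 tumor-like, 3951 macrophage/monocyte-like, 1466 neutrophil-like, 1015 T/NK-like, 620 fibroblast/stellate-like, 529 acinar-like, 265 endothelial-like, 224 dendritic-like, 211 B-like, 94 plasma-like, 78 Epcam-high epithelial-like and 40 mural-like cells, the last too few for levels. A further 5661 cells stayed unnamed, mostly with few UMIs. Levels are given in CPM, the UMIs of a gene per 1000000 UMIs of its class. Within tumor-like cells, Krt18, Krt8 and Sox9 had the highest levels of the 10 tumor markers, at 581, 485 and 390 CPM. Acinar-like cells had like levels of these genes, at 579, 524 and 436 CPM. Epcam-high epithelial-like cells had more of each than tumor-like cells, at 2234, 2489 and 416 CPM. Cdh1 (2.91 CPM), Hmga2 (0.575 CPM) and Epcam (0.496 CPM) were near 0 in tumor-like cells. Epcam reached 941 CPM in the small Epcam-high cluster, which was led by the stomach genes Tff1 and Gkn1 and was kept apart. The summed level of 7 endocrine markers there was 0 CPM in FLOX, from 34 cells, and 41623 CPM in MCT1-KO, from 44 cells, so the make-up of this class differed between the libraries. The targeted gene, Slc16a1 (MCT1), was not lower in fibroblast/stellate-like cells of the library labelled MCT1-KO: 36.9 CPM (30.4 to 44.4) against 25.8 CPM (19.4 to 33.5) in FLOX. The ratio was 1.43 (1.03 to 2.02). The paper, by contrast, reports less MCT1 in the stellate cells of knockout mice in its single-cell data, and less protein and RNA in isolated stellate cells. Whether the counted 3′ ends lie in the deleted part is not known, so the difference was not resolved here. The second library is named by its label throughout.

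Free RNA was read from barcodes with 10 to 100 UMIs. It held every ligand, from 1.11 and 2.38 CPM for Pdcd1lg2 to 56.2 and 56.0 CPM for Lgals9 (MCT1-KO and FLOX), and it is given beside the levels. By acinar genes, free RNA was estimated at 12.7% of tumor-like to 57.8% of neutrophil-like UMIs in FLOX, and 4.36% to 36.9% in MCT1-KO. Some of these shares are too high. In FLOX, Cd276 was at 4.57 CPM in neutrophil-like and 0.965 CPM in T/NK-like cells (estimate 40.9%), against 25.7 CPM in free RNA. Values with free RNA subtracted can therefore be over-corrected. Free RNA is a part of a class's UMIs only, so a level at or below it need not be free RNA. Subtraction cannot decide this, since it hardly moves a level near that of free RNA. Cd276 in tumor-like cells was at 25.8 and 25.2 CPM after subtraction (FLOX and MCT1-KO). Vsir in dendritic-like cells was at 46.8 and 22.4 CPM.

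The class with the highest level differed between the ligands. The highest level was in neutrophil-like cells for 3 of 9 (Cd274, Cd80 and Vsir), a class that held the highest level of 9.83% of the 12552 genes with enough counts. It was in endothelial-like cells for 3 (Lgals9, Nectin2 and Cd276; background 10.8%), in macrophage/monocyte-like cells for Cd86 (6.03%), in T/NK-like cells for Pdcd1lg2 (11.4%) and in Epcam-high epithelial-like cells for Pvr (11.5%), as it was in MCT1-KO but not in FLOX. No member was highest in B-like (background 17.6%), tumor-like (11.9%), fibroblast/stellate-like (8.39%), dendritic-like (5.78%), plasma-like (3.62%) or acinar-like cells (3.26%). The share of a ligand's UMIs also counts how many UMIs a class had. By it, macrophage/monocyte-like cells, with 16.9% of all UMIs, led for 4 (Cd86, Vsir, Cd80 and Cd274). Tumor-like cells, with 62.1% of all UMIs, led for another 4 (Nectin2, Cd276, Pvr and Lgals9). How many of all genes each class led in this way was not counted, so these numbers have no background.

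**Figure D1:**
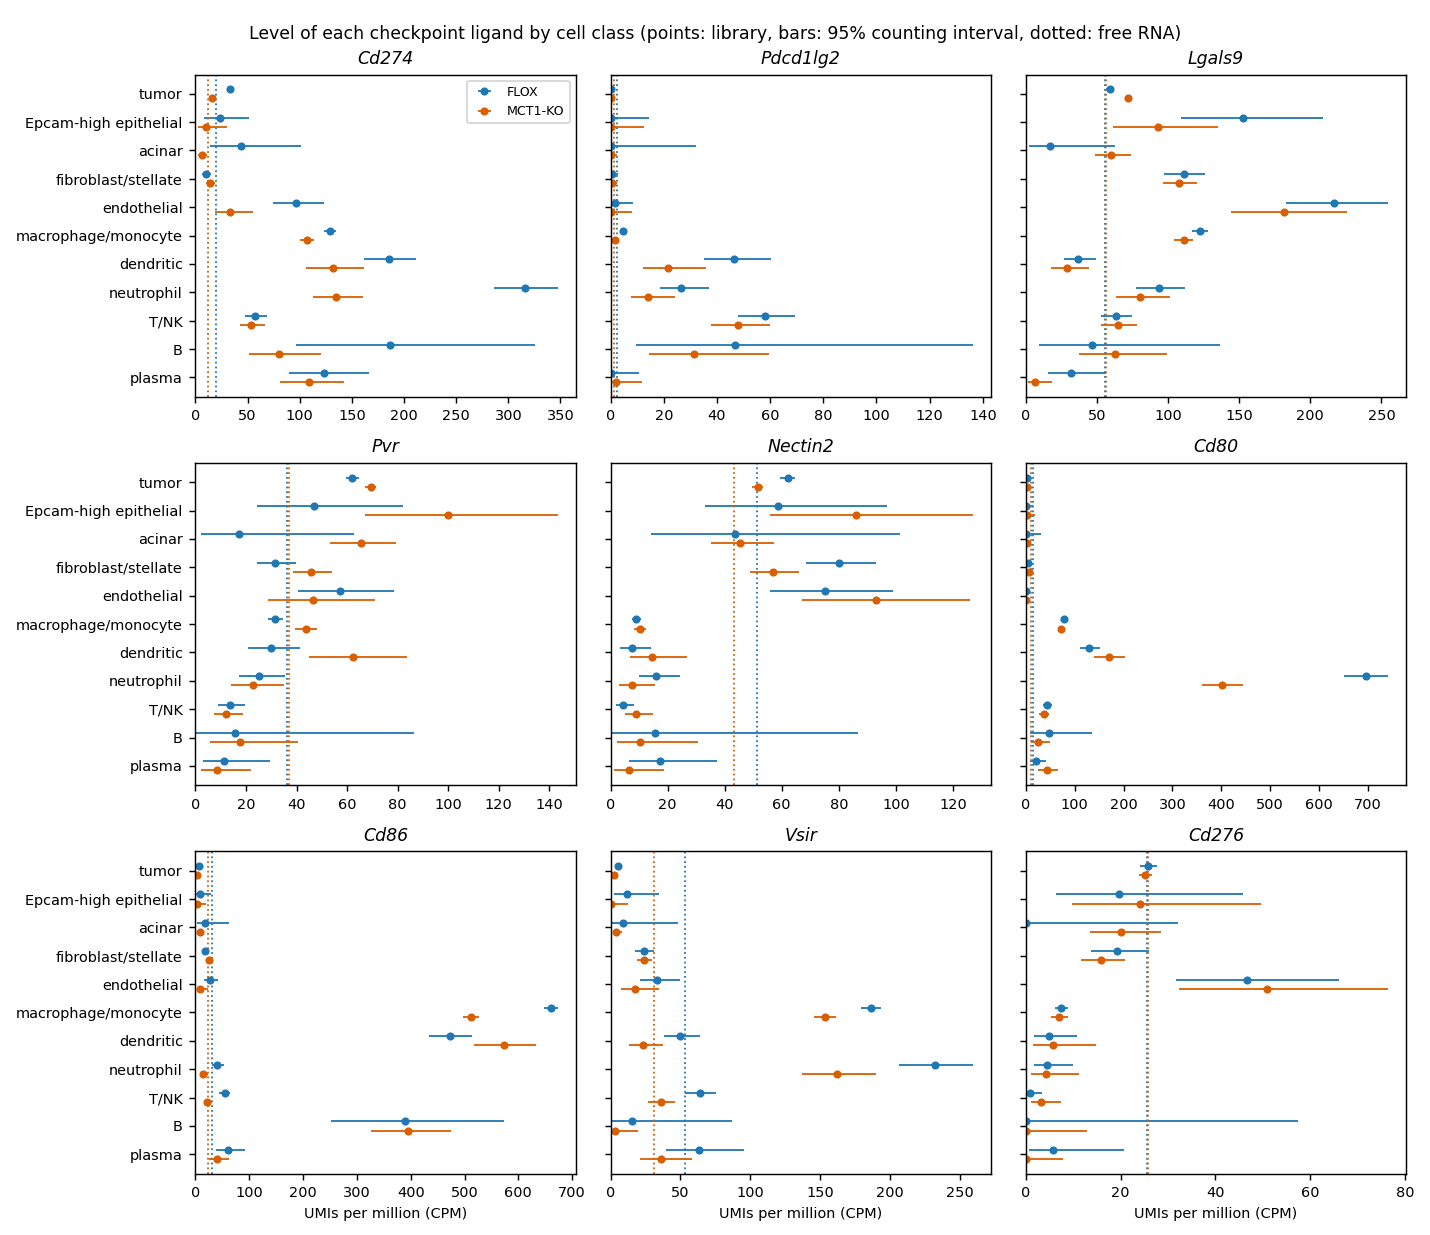
Level of each ligand in CPM (x axis, from 0, scaled per gene) in 11 classes of -like cells (y axis), with FLOX in blue and MCT1-KO in orange, bars for the 95% counting interval and dotted lines for free RNA. Cd80 stands out in neutrophil-like cells at 695 and 401 CPM, while Pvr and Nectin2 reach free RNA or more mainly in tumor, epithelial and stromal classes.

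**Figure D2:**
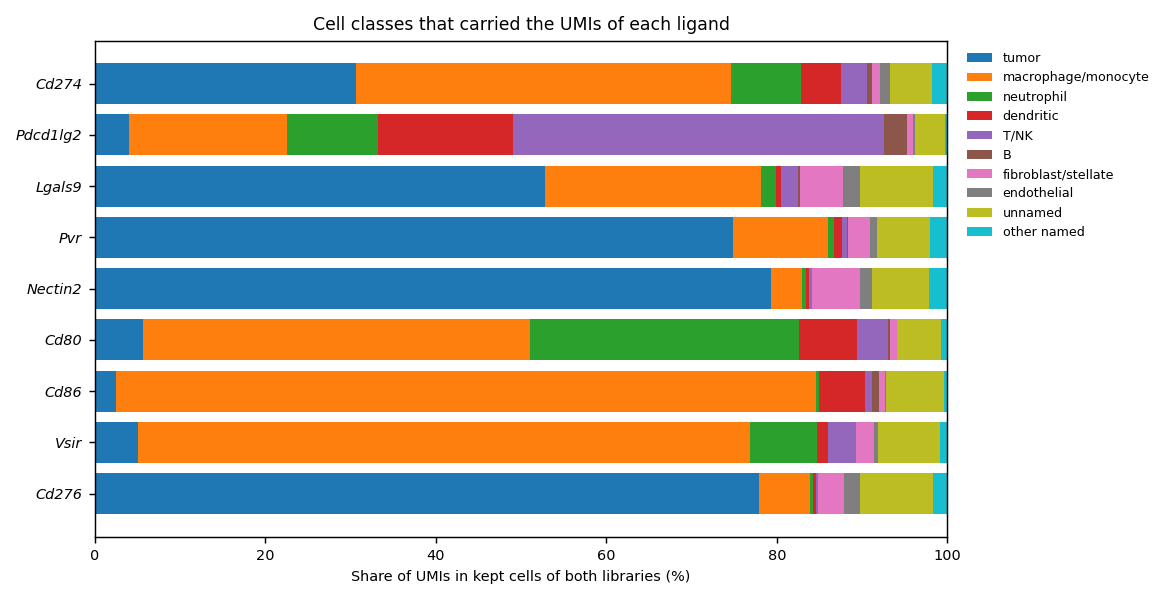
Share of each ligand's UMIs (x axis, %) by cell class (colors) over both libraries. Macrophage/monocyte-like cells hold 82.1% of Cd86 and 71.9% of Vsir, and tumor-like cells hold 79.3% of Nectin2 and 77.9% of Cd276.

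Cd274 (chr19:29367455-29388095, plus strand, GRCm38) had 6591 UMIs in kept cells. Neutrophil-like cells had 316 CPM in FLOX (286 to 348) and 135 CPM in MCT1-KO (112 to 161). Dendritic-like cells had 185 and 132 CPM, and macrophage/monocyte-like cells 129 and 107 CPM. The library ranges of neutrophil-like and dendritic-like cells overlapped, whereas dendritic-like cells stood above macrophage/monocyte-like cells in both. Tumor-like cells were far lower, at 33.4 and 16.3 CPM, against 19.8 and 12.1 CPM in free RNA, and fibroblast/stellate-like cells, at 9.84 CPM (6.09 to 15.0) and 13.5 CPM (9.70 to 18.3), were below that level in FLOX and at about it in MCT1-KO. Tumor-like cells, with 62.1% of all UMIs, still carried 30.7% of Cd274 UMIs, after macrophage/monocyte-like cells with 44.0%.

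Within the tumor-like cells, Cd274 was concentrated in 1 cluster of 218 cells. Its leading genes were Gbp6, Cxcl10 and Iigp1, a chemokine and 2 GTPases that interferon-γ induces, and Cd274 had no part in the clustering. There Cd274 was at 334 CPM in FLOX (307 to 363) and 172 CPM in MCT1-KO (154 to 191), with a UMI in 73.9% and 63.5% of cells. The other 5 tumor-like clusters lay between 6.43 and 22.3 CPM over both libraries. The cluster made up 3.67% of tumor-like cells in FLOX and 3.35% in MCT1-KO, and held 49.5% and 38.1% of their Cd274 UMIs. Of the other ligands Lgals9 was also highest in this cluster, at 89.3 CPM over both libraries against 58.6 to 67.6 CPM. Pvr (67.4 CPM) and Nectin2 (47.1 CPM) lay within the range of the other clusters, and Pdcd1lg2 had 0 UMIs, which allows up to 0.821 CPM (3 counts of the cluster's UMIs) and does not set the cluster apart from the others (0.142 to 0.348 CPM).

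**Figure D3:**
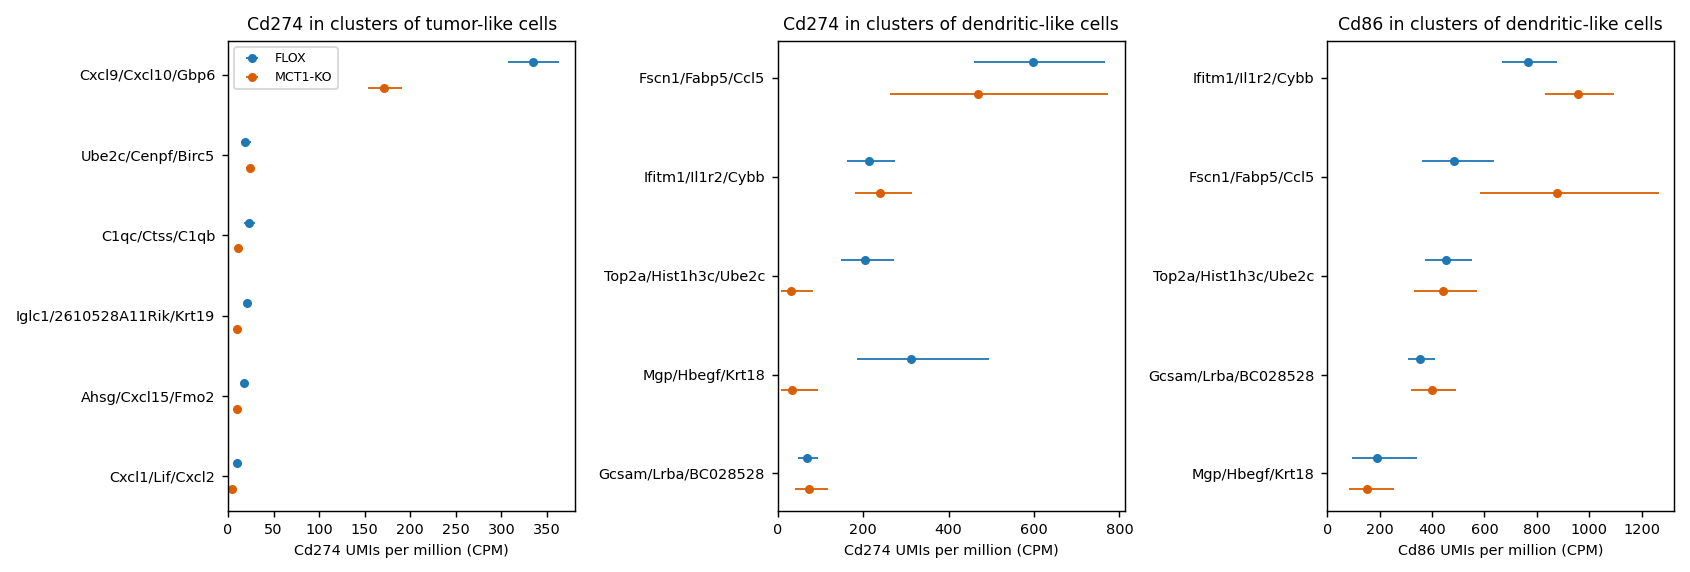
Cd274 in tumor-like clusters (left) and Cd274 and Cd86 in dendritic-like clusters (middle, right), in CPM from 0, each cluster named by its 3 leading genes within the class, with 95% counting intervals. The interferon cluster (Cxcl9, Cxcl10, Gbp6) sits at 334 and 172 CPM, above every other tumor-like cluster in both libraries.

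Of the fixed regulators of PD-L1, Irf1, a transcription factor that acts in the interferon-γ response, was also highest in that cluster among tumor-like cells. It reached 1129 CPM over both libraries against 243 to 541 CPM in the other clusters. The receptor chains Ifngr1 and Ifngr2 varied less, from 46.5 to 82.7 CPM and from 48.3 to 67.9 CPM. Cmtm6, which protects PD-L1 protein from degradation, ranged from 9.66 to 15.9 CPM. These genes come from the same cells that were clustered, so their levels describe the cluster and test nothing.

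Macrophage/monocyte-like cells formed 3 clusters that differed less. Cd274 was at 174 CPM in the cluster led by Arg1, Il10 and Il1a (186 CPM in FLOX, 161 CPM in MCT1-KO). It was at 102 CPM in the cluster led by Ccl8, Apoe and the complement gene C1qc (113 and 82.5 CPM), and at 113 CPM in a dividing cluster. Against the other macrophage/monocyte-like cells, the Ccl8 cluster was led by heat shock genes such as Hspa1a and Hsph1. When the libraries were clustered without integration, a macrophage/monocyte-like cluster led by Hspa1a held 1687 FLOX and 76 MCT1-KO cells. Another, led by Arg1, held 316 and 1738 cells. The part of heat shock genes in the ratios between the libraries was not tested. Vsir was at 194 CPM in the Ccl8 cluster, 148 CPM in the Arg1 cluster and 118.5 CPM in the dividing cluster, so the first 2 were in the reverse order of Cd274.

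Dendritic-like cells, the class that primes T cells, were split further into 5 small clusters. A cluster of 19 cells with all 6 markers of the mature, migrating state, among them Ccr7 and Fscn1, had 599 CPM of Cd274 in FLOX (460 to 766) and 469 CPM in MCT1-KO (263 to 774). The same cells had Pdcd1lg2 at 124 CPM and Cd80 at 518 CPM over both libraries, whereas Lgals9 had 0 UMIs, which allows up to 21.9 CPM by the same 3 counts. A cluster of 65 cells with markers of conventional type 2 dendritic cells (cDC2) had Cd274 at 225 CPM and Cd86 at 852 CPM. In 75 cells with the cDC1 marker Xcr1 the levels were 69.9 and 368 CPM. Of the remaining clusters 1 was dividing, and 1 of 30 cells was led by tumor genes such as Krt8 and Krt18, had few UMIs in MCT1-KO and is not read further.

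The gene of the other PD-1 ligand lies next door: Pdcd1lg2 (chr19:29410919-29471161, plus strand) starts 22823 bp after the end of Cd274. It was scarce, with 448 UMIs, and had another distribution. T/NK-like cells held 43.5% of its UMIs and had 57.9 CPM in FLOX (48.0 to 69.2) and 47.9 CPM in MCT1-KO (37.7 to 60.1). Dendritic-like cells had 46.5 and 21.7 CPM, B-like cells 46.7 and 31.4 CPM from 12 UMIs, and neutrophil-like cells 26.6 and 14.2 CPM. Intervals of these first 3 classes overlapped in FLOX, whereas in MCT1-KO that of dendritic-like cells (12.2 to 35.8) lay below that of T/NK-like cells. Tumor-like cells had 18 UMIs in all, or 0.203 CPM, below free RNA.

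The T/NK-like cells were also split by their own UMIs, after the data had been seen. Pdcd1lg2 was at 47.5 CPM in 542 cells with Cd8a or Cd8b1, at 56.2 CPM in 141 cells with Cd4 and at 66.8 CPM in the other 332 cells, so neither subset carried it alone. A Pdcd1lg2 UMI was found in 15.6% of T/NK-like cells (13.4% to 17.9%, Clopper-Pearson) at a median of 2673 UMIs, against 1.90% of macrophage/monocyte-like cells, which were deeper. Cells with at least 1000 UMIs were also thinned to 1000, which left out 70 of 1015 T/NK-like and 20 of 3951 macrophage/monocyte-like cells. The shares were then 5.19% and 0.280%.

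Cd274 and Lgals9 were highest in the interferon cluster of tumor-like cells. Their promoters, and that of Pdcd1lg2 next to Cd274, are shown with the motif of interferon regulatory factors. The windows run from 250 bases before to 50 bases after the annotated start (RefSeq, GRCm38.p6), 5′ to 3′ on the strand of the gene. Capitals mark AANNGAAA, the loose core that these factors read, on either strand:
Cd274, chr19:29367188-29367487, plus strand: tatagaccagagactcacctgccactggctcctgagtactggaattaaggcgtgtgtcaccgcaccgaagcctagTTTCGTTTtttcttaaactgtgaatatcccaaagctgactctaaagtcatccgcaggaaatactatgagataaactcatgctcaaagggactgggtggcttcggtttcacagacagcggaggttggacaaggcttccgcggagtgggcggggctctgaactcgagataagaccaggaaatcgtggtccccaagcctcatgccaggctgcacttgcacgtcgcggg
Pdcd1lg2, chr19:29410669-29410968, plus strand: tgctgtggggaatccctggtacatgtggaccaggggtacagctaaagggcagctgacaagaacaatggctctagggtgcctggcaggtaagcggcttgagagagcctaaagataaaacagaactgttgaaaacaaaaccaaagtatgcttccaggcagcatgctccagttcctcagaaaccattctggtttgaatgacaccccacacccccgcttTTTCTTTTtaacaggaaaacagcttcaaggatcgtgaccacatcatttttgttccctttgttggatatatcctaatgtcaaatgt
Lgals9, chr11:78984875-78985174, minus strand: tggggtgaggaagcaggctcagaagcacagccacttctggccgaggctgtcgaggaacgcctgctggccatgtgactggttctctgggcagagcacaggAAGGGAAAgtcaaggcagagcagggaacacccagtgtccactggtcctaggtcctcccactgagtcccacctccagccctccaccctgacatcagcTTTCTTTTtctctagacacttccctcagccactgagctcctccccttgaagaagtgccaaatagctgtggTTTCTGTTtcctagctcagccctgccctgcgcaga
Cd274 and Pdcd1lg2 each had 1 match, on the minus strand of the window, at bases 76 to 83 and 216 to 223. Lgals9 had 3, of which 2 were part of a longer form that starts with 2 more bases, GA, and Cd80 had 1, whereas Nectin2, Vsir and Cd276 had none. The core occurred in 23.9% and the longer form in 3.44% of 32851 windows, so a match of the core is common, and a match of letters is not a binding site. Windows were listed for 7 of the 9 members.

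CD80 and CD86, which share receptors and lie on the same chromosome, parted in neutrophil-like cells, whereas macrophage/monocyte-like cells held the largest share of the UMIs of both. Cd80 (chr16:38455561-38496335, plus strand) was at 695 CPM in neutrophil-like cells of FLOX (651 to 741) and at 401 CPM in those of MCT1-KO (361 to 444). That was 3.97 times the next class, dendritic-like cells (130 and 169 CPM), and the library ranges did not overlap. A Cd80 UMI was found in 47.4% of neutrophil-like cells at a median depth of 1471 and 1076 UMIs, and in 42.7% after thinning to 1000 UMIs. The thinning left out 322 of 1466 cells that had fewer UMIs, 268 of them in MCT1-KO. Macrophage/monocyte-like cells, with 78.6 and 72.7 CPM, still held 45.4% of Cd80 UMIs because they were many and deep.

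Cd86 (chr16:36603869-36666081, minus strand) was at 660 CPM in macrophage/monocyte-like cells of FLOX (647 to 674) and 512 CPM in those of MCT1-KO (498 to 527). Dendritic-like cells had 473 and 574 CPM, so the order of these classes was reversed between the libraries. B-like cells had 389 and 395 CPM. Neutrophil-like cells, the class richest in Cd80, had 40.3 and 14.2 CPM of Cd86, close to free RNA at 31.6 and 23.1 CPM. Tumor-like and Epcam-high cells lay below free RNA for both genes.

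Of the TIGIT and CD226 ligands, Pvr (chr7:19903578-19921160, minus strand) was spread widely. Tumor-like cells had 62.0 CPM in FLOX and 69.3 CPM in MCT1-KO, and Epcam-high epithelial-like cells 47.1 and 99.9 CPM with overlapping ranges. Endothelial-like cells had 57.1 and 46.5 CPM, and the remaining 8 classes were below the free RNA level of 36.1 and 36.9 CPM in at least 1 library. Within tumor-like cells Pvr ranged from 39.5 CPM in the dividing cluster to 92.8 CPM in the cluster led by Inhba and Areg. That cluster also had the highest Cd86 of the tumor-like clusters in FLOX, 28.8 CPM against 4.37 to 9.13 CPM, and within the class it was led by macrophage genes such as C1qc.

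Nectin2 (chr7:19716644-19750483, minus strand) set non-immune apart from immune cells. Endothelial-like cells had 75.2 and 93.1 CPM, fibroblast/stellate-like cells 80.1 and 57.1 CPM and tumor-like cells 62.1 and 51.6 CPM. The 6 immune classes, from 4.34 to 17.2 CPM over the libraries, were all below free RNA at 51.5 and 43.3 CPM. The step between acinar-like cells, the lowest of the 5 non-immune classes with levels, and neutrophil-like cells was 3.60-fold.

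Lgals9 (chr11:78962974-78984946, minus strand), whose product is secreted and binds TIM-3, was at 216 CPM in endothelial-like cells of FLOX (183 to 255) and 182 CPM in those of MCT1-KO (145 to 226). The next classes, Epcam-high epithelial-like, macrophage/monocyte-like and fibroblast/stellate-like cells, were between 93.0 and 153 CPM and had overlapping intervals. Tumor-like cells, at 58.9 and 71.8 CPM, were little above free RNA but held 52.8% of Lgals9 UMIs.

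Vsir (chr10:60346851-60372684, plus strand), a ligand known from myeloid cells, was at 232 CPM in neutrophil-like cells of FLOX (207 to 260) and 162 CPM in those of MCT1-KO (137 to 190). Macrophage/monocyte-like cells had 186 and 153 CPM, and the ranges overlapped. T/NK-like cells followed at 63.7 and 35.8 CPM, near free RNA at 53.2 and 31.0 CPM. Dendritic-like cells, at 49.8 and 23.2 CPM, were below it, in contrast to their high Cd86.

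Cd276 (chr9:58524298-58555437, minus strand) was at 46.6 CPM in endothelial-like cells of FLOX (31.7 to 66.2) and 51.0 CPM in those of MCT1-KO (32.3 to 76.5). Tumor-like cells had 25.9 and 25.2 CPM, the level of free RNA (25.7 and 25.8 CPM), and held 77.9% of its UMIs. All immune classes had 7.46 CPM or less in each library.

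For each ligand the 3 genes with the most similar pattern were found by Pearson's r of log2(CPM + 1) over 22 points, 11 classes in 2 libraries. The closest were for Cd86, namely Cd83 (r = 0.97) and Ly86 (r = 0.95), both genes of antigen-presenting cells, and Cd72 (r = 0.92). For Nectin2 they were Nfib (r = 0.94), Npdc1 (r = 0.93) and Sox4 (r = 0.92). Cd80 was most like Cd53, Bcl2a1d and Ncf4 (r = 0.93, 0.92 and 0.92), Vsir most like Fcer1g, Lilr4b and Entpd1 (r = 0.89, 0.86 and 0.85), and Cd274 most like Themis2, Snx20 and Samhd1 (r = 0.88, 0.86 and 0.85). Those for Pdcd1lg2 were Stk4, Ubac2 and Malt1 (r = 0.93, 0.91 and 0.91), and those for Cd276 Lrrc49, Rras and Prpf40b (r = 0.94, 0.92 and 0.91). Pvr and Lgals9 were led by Rtn4 (r = 0.89), with Ptov1 also among the 3, and by Egln1 (r = 0.85), with Gnb1 and Ywhab. The points share libraries and depth, and r is a description.

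Of the 10 receptors, 8 had their highest level in T/NK-like cells. Ctla4 was at 594 CPM there over both libraries, Pdcd1 at 346 CPM, Cd28 at 262 CPM, Cd226 at 142 CPM, Cd96 at 82.8 CPM and Tigit at 74.5 CPM. Havcr2 was at 184 CPM in dendritic-like, 95.7 CPM in T/NK-like and 84.6 CPM in macrophage/monocyte-like cells, which held more of its UMIs (2041) than T/NK-like cells (348). Selplg was at 383 CPM in T/NK-like, 284 CPM in neutrophil-like, 250.2 CPM in dendritic-like and 105 CPM in macrophage/monocyte-like cells, with 1393 UMIs in T/NK-like and 2529 in macrophage/monocyte-like cells. Pvrig had 2.47 CPM in T/NK-like cells, and Igsf11, another reported partner of VISTA, had no UMI there. Of 9 further ligands of the same families, Lgals3 was found in every class (62.8 to 941 CPM) and Cd200 was at 435 CPM in endothelial-like cells. Icosl was at most 34.9 CPM, in neutrophil-like cells, Nectin1 was at most 49.6 CPM, in dendritic-like cells, and Vtcn1, Fgl1, Cd70, Nectin3 and Tnfrsf14 were at most 31.2 CPM in any class.

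Between the libraries, ratios (MCT1-KO over FLOX) were taken for 7 classes with at least 50 cells in each library and for members with at least 50 UMIs in the class, which left 48 ratios. Of these 35 were below 1 and 13 above. A difference of at least 1.5-fold was seen as lower in MCT1-KO in 13 and as higher in 1, Pvr in dendritic-like cells. Lower members were 4 of 8 in tumor-like cells (background of all genes 8.66%), 3 of 6 in neutrophil-like cells (10.4%), 2 of 7 in dendritic-like cells (12.9%), 2 of 6 in T/NK-like cells (9.49%), 1 of 5 in endothelial-like cells (14.2%), 1 of 9 in macrophage/monocyte-like cells (9.2%) and 0 of 7 in fibroblast/stellate-like cells (11.3%). The single higher member stood against 9.16% of genes in dendritic-like cells. Elsewhere no member was higher past that fold, against 5.57% of all genes in tumor-like, 6.31% in T/NK-like, 6.47% in macrophage/monocyte-like, 7.48% in endothelial-like, 9.84% in fibroblast/stellate-like and 13.6% in neutrophil-like cells. Of the 13 lower ratios, 7 had levels above free RNA in both libraries, namely Cd274 in tumor-like, neutrophil-like and endothelial-like cells, Cd80 in neutrophil-like cells, Pdcd1lg2 in macrophage/monocyte-like and dendritic-like cells and Vsir in T/NK-like cells. Another 2 were above it in 1 library, and 4 were below it in both, Vsir in dendritic-like cells and, in tumor-like cells, Cd80 (3.24 CPM in FLOX and 2.16 CPM in MCT1-KO), Cd86 (7.49 and 3.40 CPM) and Vsir (5.10 and 2.16 CPM). Of the 4 lower members in tumor-like cells, then, Cd274 was the one above the free RNA level. These comparisons used values without their intervals. In MCT1-KO, Vsir in T/NK-like cells (35.8 CPM, 56 UMIs) was close to free RNA (31.0 CPM). So was Pdcd1lg2 in macrophage/monocyte-like cells (1.47 CPM, 14 UMIs, against 1.11 CPM). Pvr in dendritic-like cells was at 29.9 CPM in FLOX, below free RNA, and 62.3 CPM in MCT1-KO. There the summed level of 10 tumor markers, 1 of them at 0, was 159 CPM in FLOX and 508 CPM in MCT1-KO, and the cluster led by tumor genes held 4 of 117 and 26 of 107 cells. Without that cluster the ratio of Pvr was 1.92 (1.17 to 3.13). Without replicates these counts compare 2 libraries, not the genotypes.

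**Figure D4:**
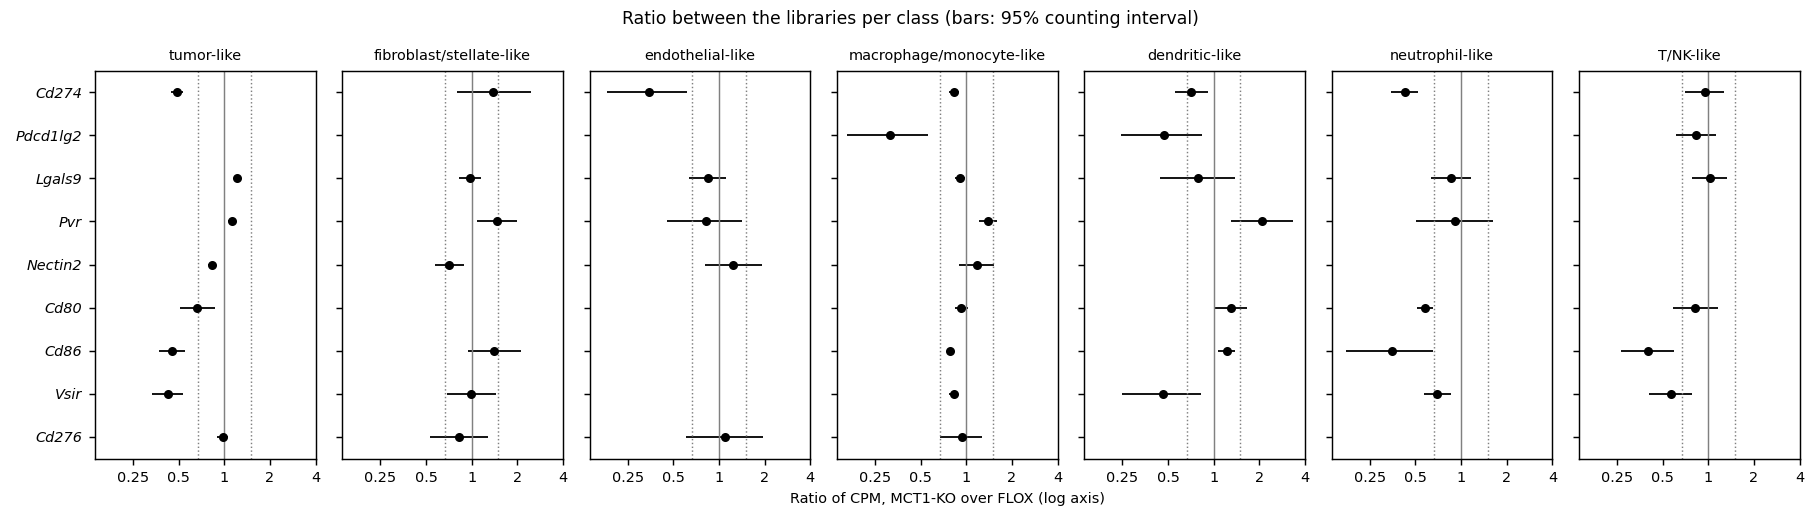
Ratio of CPM, MCT1-KO over FLOX (x axis, log scale), for members (y axis) with at least 50 UMIs in each of 7 classes, with 95% counting intervals and dotted lines at 1.5-fold. Most points for Cd274, Cd86 and Vsir lie left of 1, whereas Pvr is right of 1 in tumor-like (1.12), fibroblast/stellate-like (1.46), macrophage/monocyte-like (1.39) and dendritic-like cells (2.08).

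Cd274 was lower in MCT1-KO in tumor-like cells (ratio 0.49, 0.45 to 0.53), neutrophil-like cells (0.43, 0.35 to 0.52) and endothelial-like cells (0.35, 0.18 to 0.61). The ratio was 0.71 (0.55 to 0.91) in dendritic-like cells, or 0.82 (0.63 to 1.06) without their cluster led by tumor genes. It was 0.83 in macrophage/monocyte-like and 0.94 (0.70 to 1.26) in T/NK-like cells. It was above 1 in fibroblast/stellate-like cells alone, at 1.37 (0.79 to 2.45), or 3.20 with free RNA subtracted. In tumor-like cells it was 0.51 (0.45 to 0.59) within the interferon cluster and 0.59 (0.52 to 0.66) in the other clusters together, so it was below 1 in both parts. Of the regulators, Irf1 was at 0.47 in tumor-like and 0.55 in endothelial-like cells but at 1.26 in neutrophil-like cells. Jak2 was higher past 1.5-fold in neutrophil-like (1.81), endothelial-like (1.74) and macrophage/monocyte-like cells (1.54), and lower in dendritic-like cells (0.63). Over the 8 regulators reported here there were 50 ratios with a median of 1.03, of which 7 were higher and 3 lower in MCT1-KO past 1.5-fold. By class, 5.57% to 13.6% of all genes were higher and 8.66% to 14.2% lower past that fold.

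Pdcd1lg2 had ratios of 0.31 (0.16 to 0.56) in macrophage/monocyte-like and 0.47 (0.25 to 0.84) in dendritic-like cells, and of 0.83 (0.61 to 1.11) in T/NK-like cells, which held the largest share of it. Cd80 was at 0.58 (0.51 to 0.65) in neutrophil-like and 0.92 (0.84 to 1.02) in macrophage/monocyte-like cells. Cd86 was at 0.78 (0.75 to 0.80) in macrophage/monocyte-like cells. It was at 0.45 in tumor-like, 0.35 in neutrophil-like and 0.40 in T/NK-like cells, where its level was 54.0 CPM or less in each library. Vsir was at 0.82 (0.77 to 0.88) in macrophage/monocyte-like and 0.70 (0.57 to 0.85) in neutrophil-like cells.

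Pvr, Lgals9, Nectin2 and Cd276, which had their largest share of UMIs in tumor-like cells, were within 1.5-fold there. In tumor-like cells Pvr had a ratio of 1.12 (1.06 to 1.18), Lgals9 of 1.22 (1.16 to 1.29), Nectin2 of 0.83 (0.78 to 0.88) and Cd276 of 0.98 (0.90 to 1.06). In fibroblast/stellate-like cells, the cells meant to lose MCT1, Nectin2 was at 0.71 (0.57 to 0.89), Pvr at 1.46 (1.08 to 1.99) and Lgals9 at 0.97 (0.82 to 1.15). The make-up of this class differed between the libraries. Summed adipocyte markers were at 0.937 CPM in FLOX and 1062 CPM in MCT1-KO, mural markers at 902 and 287 CPM, endocrine markers at 372 and 6.27 CPM and acinar markers at 119 and 1977 CPM. The part of these in the ratios was not tested. In endothelial-like cells the ratios of Lgals9, Nectin2 and Cd276 all had intervals that included 1.

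Markers of another class moved with several of these ratios. The summed level of the 11 macrophage/monocyte markers was 444 CPM in FLOX and 175 CPM in MCT1-KO in tumor-like cells, 2186 and 1227 CPM in neutrophil-like, 1514 and 579 CPM in endothelial-like and 989 and 495 CPM in T/NK-like cells. In macrophage/monocyte-like cells themselves it was 24388 and 23998 CPM. In neutrophil-like cells the sum was led by Lyz2, at 1091 CPM over both libraries, with C1qa at 135 CPM. Macrophage/monocyte-like cells had 6285 and 5047 CPM of these 2 genes. How much of the sum in neutrophil-like cells was RNA of another class was not tested. In tumor-like cells the 7 fibroblast/stellate markers were at 1298 and 653 CPM, the 7 neutrophil markers at 140 and 70.0 CPM and the 9 T/NK markers at 12.6 and 5.70 CPM, whereas the 10 acinar markers were at 42.4 and 742 CPM. Free RNA also held less Cd274 (ratio 0.61), Vsir (0.58), Pdcd1lg2 (0.47), Cd86 (0.73), Cd80 (0.74) and Nectin2 (0.84) in MCT1-KO, whereas Lgals9, Pvr and Cd276 were between 1.00 and 1.02. The part of these in the ratios was not tested. With free RNA subtracted by the acinar shares, which can remove too much, Cd274 was at 0.47 in tumor-like and 0.39 in neutrophil-like cells. It was at 0.68 in macrophage/monocyte-like cells, and Cd80 was at 0.52 in neutrophil-like cells.

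Among receptors in T/NK-like cells, Pdcd1 was at 254 CPM in MCT1-KO and 416 CPM in FLOX (ratio 0.61, 0.54 to 0.69) and Cd226 at 90.1 and 181 CPM (0.50, 0.41 to 0.61). Ctla4 (0.70), Tigit (0.69) and Havcr2 (0.72) were below 1 by less than 1.5-fold, and Selplg was at 1.25 (1.12 to 1.39). In the split by own UMIs, which depends on depth, the ratio of Pdcd1 was 0.58 (0.50 to 0.68) in cells with Cd8a or Cd8b1, 1.02 (0.75 to 1.37) in cells with Cd4 and 0.56 (0.41 to 0.76) in the other cells. That of Ctla4 was 0.55 (0.49 to 0.63), 1.11 (0.92 to 1.35) and 0.70 (0.59 to 0.83). That of Cd226 was 0.46 (0.36 to 0.58), 0.76 and 0.69, the latter 2 with intervals that included 1. Cells with Cd8a or Cd8b1 were 60.2% of T/NK-like cells in FLOX (321 of 533) and 45.9% in MCT1-KO (221 of 482). The summed level of the 9 T/NK markers in this class was 5563 CPM in FLOX and 3922 CPM in MCT1-KO, and its part in the receptor ratios was not tested. Over the 10 receptors there were 19 ratios with a median of 0.80. Past 1.5-fold, 4 were lower in MCT1-KO. They were 2 of 8 in T/NK-like cells, Pdcd1 and Cd226 (9.49% of all genes), and 2 of 4 in tumor-like cells, Ctla4 and Havcr2 (8.66%). The 1 higher ratio was Pdcd1 in tumor-like cells (5.57% of all genes), at 2.37 CPM in MCT1-KO and 1.12 CPM in FLOX. These tumor-like receptor levels were all below free RNA, at 2.37 CPM or less against 7.04 CPM or more. Among the further ligands, Lgals3 was higher in fibroblast/stellate-like (1.91, 1.72 to 2.13) and tumor-like cells (1.66, 1.63 to 1.70). Of the 23 ratios of the further ligands 5 were higher and 2 lower in MCT1-KO past 1.5-fold, with a median of 1.13. By class, 5.57% to 13.6% of all genes were higher and 8.66% to 14.2% lower past that fold.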

How the data were processed

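Single-cell 3′ RNA libraries of unsorted tumor cells were analysed, 1 per condition, with groups from the sample labels. The deposited values are raw UMI counts, which the authors made with SeekOneTools after read trimming in Fastp, per gene and barcode (177334432 in FLOX, 151118092 in MCT1-KO). The submitters' notes name GRCh38 and Seurat 4.0.0, whereas the genes listed are mouse, and which build was used for counting could not be settled. Positions are from GENCODE vM21. Kept barcodes had at least 500 UMIs, 200 to 5000 genes and at most 8% mitochondrial UMIs. They were integrated by canonical correlation anchors (2000 variable genes without the 9 members, 20 dimensions, resolution 0.8) in Seurat 5.3.0 (R 4.3.3). A cluster took the class whose fixed markers were nearest their maximum, given 3 markers detected in 10% of cells. It stayed unnamed if genes of another class led it, or if it had under 1/3 of its libraries' median UMIs and no marker led it. This naming rule, and the split of a cluster with over 100 times the median Epcam of tumor-like clusters, were set after clusters had been seen. Doublets were kept in the main values. Sums of UMIs by class and by library were made in pandas 2.3.3 and scipy 1.17.1 (numpy 2.4.6, python 3.11.15). Levels needed 30 cells per library and ratios 50. Intervals are exact Poisson, Clopper-Pearson and conditional binomial for ratios. The ratio intervals alone were tried on simulated data. These were drawn as the Poisson counts that such intervals assume, so spread between cells or mice was not tested. No p-value is given, since cells are not replicates. Members, lists and tests were chosen with earlier results of these data known. Named genes were the members, the fixed lists, markers, leading genes and 3 similar genes per member, which needed 200 UMIs. A few of these are not reported here. Alternatives changed the filters on UMIs, genes and doublets, resolution, integration, class assignment, total, free RNA and depth.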

Additional observations from a re-analysis of the deposited data

Results flagged for a closer look

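Cd80 and Cd86 had ratios (MCT1-KO over FLOX) on opposite sides of 1 in different classes. Cd80 was at 1.30 in dendritic-like cells but at 0.58 in neutrophil-like and 0.66 in tumor-like cells. Cd86 was at 1.21 in dendritic-like cells but at 0.40 in T/NK-like, 0.35 in neutrophil-like and 0.45 in tumor-like cells. The counting intervals of these ratios excluded 1. With 1 library per condition the difference between classes was not tested. With free RNA subtracted, the dendritic-like ratios were 1.03 for Cd80 and 0.95 for Cd86. Cd80 in tumor-like cells, where its level was below free RNA, was then at 1.05, and the other ratios below 1 named here were between 0.23 and 0.63.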

How the results depend on the processing

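No paired analysis was possible because each condition had 1 library and the result comes from no test. Of the 14 ratios past 1.5-fold, 12 stayed past it in every alternative that gave a value. Vsir in tumor-like cells had none with free RNA subtracted, which left 0 CPM in FLOX. Leaving out the dendritic-like cluster led by tumor genes, added after seeing the data, kept the counts at 1 and 13. Cd86 in neutrophil-like cells ranged from 0.23 to 0.70, and Cd80 in tumor-like cells from 0.61 to 1.05, with the value above 1 when free RNA was subtracted. The number of members' ratios at least 1.5-fold higher in MCT1-KO, 1 in the values above, was 3 with a minimum of 1000 UMIs per cell, 2 with no upper limit on genes, 3 without integration, 2 with a total without mitochondrial, ribosomal, heat shock and acinar genes, 8 with free RNA subtracted and 0 when members needed 200 UMIs in a class, which left fewer ratios. The 8 included Cd276 in macrophage/monocyte-like cells (8.93) and Cd274 (3.20) and Cd86 (2.43) in fibroblast/stellate-like cells, all near or below the level of free RNA before subtraction. The number lower in MCT1-KO was 13 above and 6 when members needed 200 UMIs. The class with the highest level was another one for Nectin2 with no upper limit on genes (Epcam-high epithelial-like, 90.3 CPM), and for Pvr (tumor-like, 68.2 CPM) and Vsir (macrophage/monocyte-like, 165 CPM) when each cell was assigned on its own. In FLOX alone it was tumor-like for Pvr (62.0 CPM) and fibroblast/stellate-like for Nectin2 (80.1 CPM), and in MCT1-KO alone dendritic-like for Cd86 (574 CPM). With Epcam-high joined to tumor-like cells, an alternative chosen after seeing the data, tumor-like cells led for Pvr (66.6 CPM). Of the shares of a ligand's UMIs, 38 of 54 alternative values lay outside the counting interval. Over the 6 alternatives the share in tumor-like cells ranged from 52.3% to 87.2% for Nectin2, 52.3% to 85.9% for Cd276, 52.0% to 83.6% for Pvr and 36.9% to 68.5% for Lgals9, each lowest when cells were assigned on their own. In macrophage/monocyte-like cells it ranged from 84.8% to 88.1% for Cd86, 73.3% to 78.2% for Vsir, 46.4% to 50.6% for Cd80 and 34.8% to 48.5% for Cd274, and in T/NK-like cells from 40.4% to 45.8% for Pdcd1lg2. With no upper limit on genes tumor-like cells led for Cd274, with 47.4%, the single change of leading class. Of the levels, 32 of 97 values lay outside it. The class with the largest share of cells with a UMI was the same for 2 of 9 members after thinning to 1000 UMIs, Pvr and Cd80. Depth therefore limits what shares of cells show, and rare classes such as dendritic-like cells limit the ratios.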
